A study of Mus musculus with 2 samples.

Results

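The genes described here are the matrix proteases and their inhibitors of 2 mouse cell cultures. They are all genes whose symbol is Mmp, Timp, Adam or Adamts followed by a number. By that rule 79 of the 26100 genes listed for both libraries were members, namely 23 Mmp, 4 Timp, 33 Adam and 19 Adamts genes. Of these, 33 reached 5 CPM (UMIs of the gene per 1000000 UMIs of the cell set) in at least 1 of the 5 cell sets below and are given one by one (9 Mmp, 3 Timp, 9 Adam and 12 Adamts). The other 46 stayed under that level.

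Matrix metalloproteinases (MMPs) are zinc enzymes that cut collagens, laminins and other proteins of the extracellular matrix. Most are secreted as inactive precursors and the membrane-type members stay on the cell surface. Tissue inhibitors of metalloproteinases (TIMPs) bind their active sites. ADAMs are membrane proteins that release the outer parts of growth factors, Notch receptors and adhesion molecules, and some have lost the protease activity. ADAMTS enzymes are secreted and cut procollagens or large proteoglycans such as versican. In skeletal muscle these enzymes are known for remodelling the matrix around satellite cells, the muscle stem cells, and around fusing myoblasts.

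Both cultures were measured cell by cell with 10x Genomics droplets, where a unique molecular identifier (UMI) lets every captured RNA molecule be counted once. The MEF library came from fibroblasts grown out of mouse embryos and cultured in MEF media. The iMPC library held induced myogenic progenitor cells made from such fibroblasts with MyoD, the muscle-determining transcription factor, and an F/R/C treatment, and kept in F/R/C media. The labels do not spell out F/R/C, and the series text speaks of a stable iMPC clone. Both groups carried the genotype Tg:Pax7-nGFP/C57BL6;DBA2, so the Pax7 reporter transgene was present in the fibroblasts as well. Each group was 1 library, so there was no replicate check and no test between conditions. Intervals given with values are exact, at 95%, and account for counting error alone.

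MEF cells numbered 6043, with a median of 18929 UMIs per cell. The 9349 iMPC cells had a median of 20846 UMIs. Within iMPC, 4 sets were formed from UMI counts of 4 genes. Pax7 cells held at least 1 Pax7 UMI and 0 Myog UMIs (2180 cells). Myog-high cells held at least 5 Myog and at most 1 Ckm UMI (1724 cells), and Ckm-high cells at least 5 Ckm UMIs (1037 cells). Dcn-high cells held at least 5 UMIs of Dcn, which encodes the fibroblast proteoglycan decorin (553 cells). Pax7 marks satellite cells, Myog commitment to muscle differentiation and Ckm contractile myocytes. Such limits favour deep cells, and Ckm-high cells had a median of 42148 UMIs against 18729.5 in Pax7 and 18064 in Dcn-high cells. The remaining 4001 iMPC cells fell in no set.

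Marker lists were summed in each set, and they include the 4 genes that formed the sets. Of 10 satellite and progenitor markers 10 reached 10 CPM in Pax7 cells (summed level 1547 CPM), and of 7 myoblast commitment markers 7 did in Myog-high cells (6207 CPM, of which Myog itself was 1339). Neither list was particular to its set. The first summed to 1874 CPM in Myog-high and 3136 CPM in Ckm-high cells, where Des, a gene of muscle filaments, was 2537 CPM of it, and 10 of its genes reached 10 CPM in Dcn-high cells. The second summed to 7201 CPM in Ckm-high cells, and its 7 genes reached 10 CPM there and in Dcn-high cells. Of 10 fibroblast markers, 10 reached 10 CPM in MEF and 9 in Dcn-high cells, where the list summed to 6589 and 5237 CPM (Dcn itself 268 and 1162 CPM). The same list summed to 1365 CPM in Pax7 and 143 CPM in Ckm-high cells. Of 10 myocyte markers, 10 reached 10 CPM in Ckm-high cells, with a summed level of 49467 CPM. Dcn-high cells also carried 4451 CPM of the myocyte list and 26.2 CPM of Pax7. They shared 110 cells with the Pax7 set and 18 with each of the other 2 sets, and Scrublet marked 7.41% of them as doublets. Immune markers summed to 2.62 to 4.35 CPM and endothelial markers to at most 1.29 CPM in the 5 sets. Other lists were higher, each mostly through 1 gene. Chondrocyte markers reached 78.5 CPM (Sox9 78.3) and adipocyte markers 20.5 CPM (Fabp4 19.2), both in Dcn-high cells. Glial markers reached 36.9 CPM in Ckm-high cells (Erbb3 35.2) and epithelial markers 14.6 CPM in MEF cells (Krt18 14.2). Of the kept barcodes, 16 occurred in both libraries (0.265% of MEF cells).

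Summed over families, inhibitor transcripts outnumbered MMP transcripts in each set. A 3′ UMI assay counts a molecule once whatever its length, while differences between genes in capture and in mapping were not tested. Timp genes summed to 1496 CPM in MEF, 697 in Pax7, 266 in Myog-high, 367 in Ckm-high and 1686 in Dcn-high cells. Mmp genes summed to 330 CPM in MEF, 212 in Pax7, 68.1 in Myog-high, 51.1 in Ckm-high and 892 in Dcn-high cells. Dcn-high cells were thus the highest in both. The number of Timp UMIs per Mmp UMI was lowest in Dcn-high cells at 1.89 (1.85 to 1.93). It was 3.28 (3.21 to 3.36) in Pax7, 3.91 (3.76 to 4.06) in Myog-high and 4.54 (4.49 to 4.59) in MEF cells. Ckm-high cells had the highest value, 7.18 (6.89 to 7.49). Adam genes were highest in MEF (417 CPM) and stood between 146 and 177 CPM in the 3 myogenic sets, against 313 CPM in Dcn-high cells. Adamts genes stood at 180 CPM in MEF, 196 in Pax7, 126 in Myog-high, 163 in Ckm-high and 407 in Dcn-high cells, so that MEF and Pax7 cells were close.

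**Figure D1:**
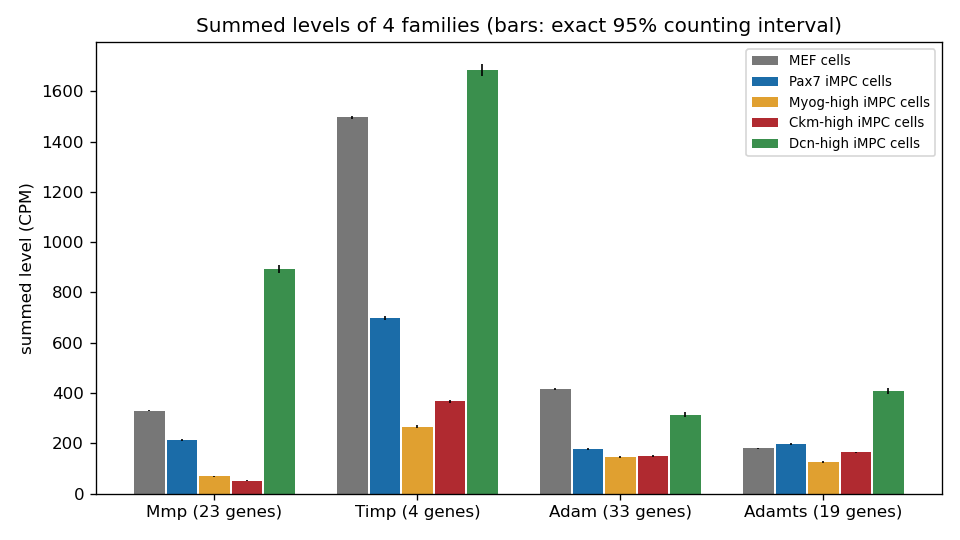
Summed level in CPM (vertical axis) of the 23 Mmp, 4 Timp, 33 Adam and 19 Adamts genes in MEF cells and 4 sets of iMPC cells, with exact 95% counting intervals. Dcn-high cells show the tallest bars for Mmp (892 CPM), Timp (1686 CPM) and Adamts (407 CPM), and MEF cells for Adam (417 CPM).

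For single genes, a difference was counted when the levels were at least 2-fold apart and the higher one reached 5 CPM. All genes were compared by the same rule, and the share of them that passed it is given as background. In Ckm-high against Pax7 cells 23 of 28 tested members differed, 4 higher and 19 lower, where 43.6% of all tested genes did (11.9% higher and 31.7% lower). In Myog-high against Pax7 cells 18 of 28 did, 3 higher and 15 lower, against 19.8% of all genes (7.02% higher and 12.8% lower). Dcn-high cells differed from Pax7 cells in 19 of 31 members, 18 higher and 1 lower, against 18.6% (11.7% higher and 6.90% lower). Against MEF cells they differed in 21 of 31, 14 higher and 7 lower, with a background of 27.7% (14.3% and 13.4%). The whole iMPC library differed from MEF in 16 of 29 members, 5 higher and 11 lower, where 37.4% of all genes did (15.5% and 21.9%). The median log2 ratio of the tested members was -1.44 in Ckm-high against Pax7 cells (all tested genes -0.49), -1.28 in Myog-high against Pax7 cells (-0.17) and 1.19 in Dcn-high against Pax7 cells (0.02). It was 0.83 in Dcn-high against MEF cells (-0.09) and -0.69 in iMPC against MEF (-0.17). Scaled by the median of gene ratios, 17 of the 23 differences in Ckm-high against Pax7 cells remained (38.7% of all genes), without Mmp3, Adam9, Adam12, Adam15, Adam17 and Adam23. The comparisons with Pax7 cells share those cells, and the tested members are only those that reached the minimum level on 1 side.

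**Figure D2:**
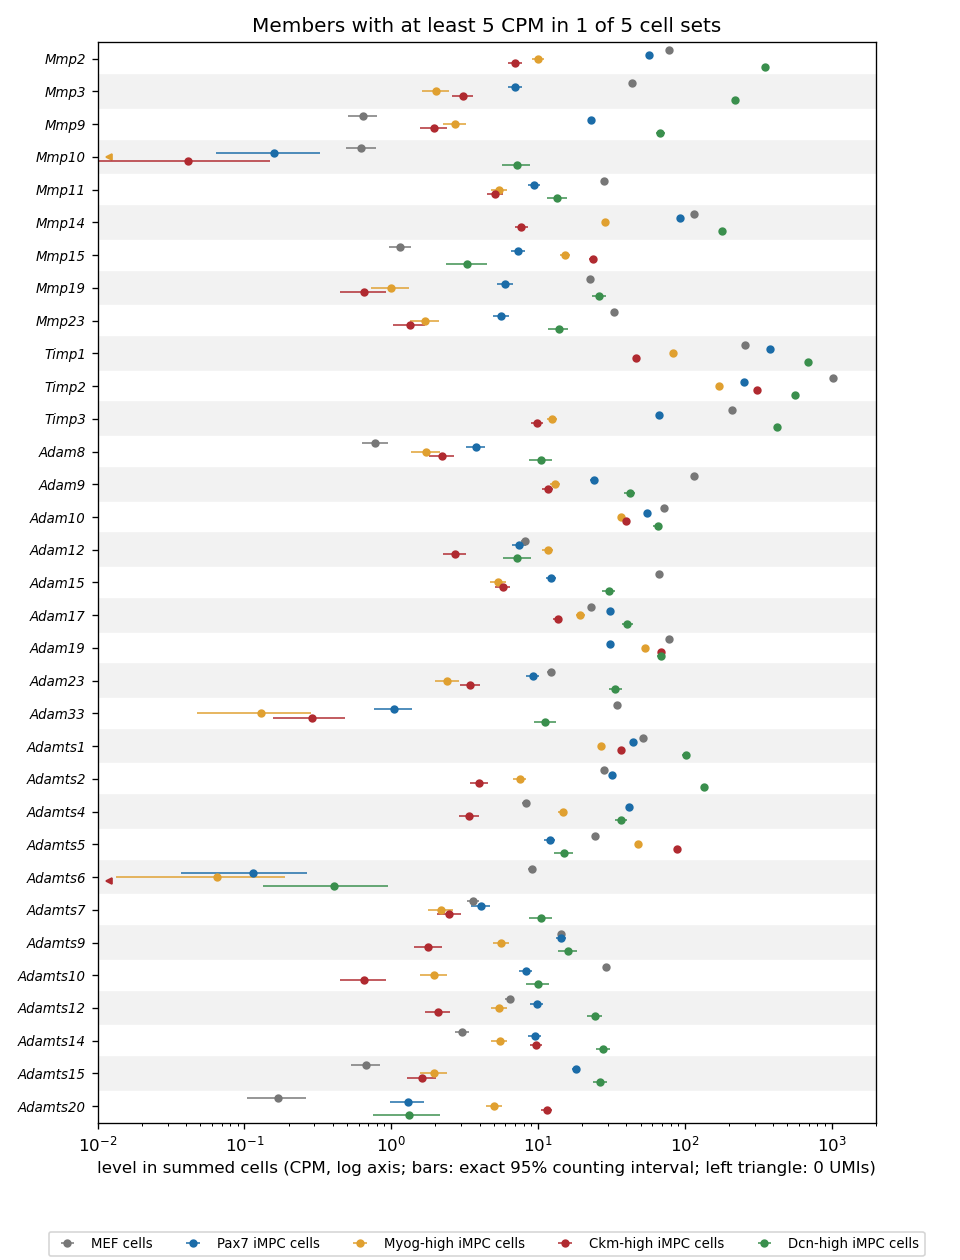
Level in CPM (horizontal log axis) of the 33 members that reached 5 CPM, in MEF cells and 4 iMPC sets, with exact 95% counting intervals and a left triangle for 0 UMIs. Dcn-high points lie farthest right for 18 members, MEF for 10 and Ckm-high for 3 (Mmp15, Adamts5 and Adamts20). Of the 18, 16 have intervals clear of the next set, and Mmp19 and Adamts9 do not. The share of all genes highest in each set was not computed, and members were kept by their level in any 1 set.

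Timp genes had the highest summed level of the 4 families in each set, and the 3 of them past 5 CPM differed in their order across the sets. Timp2 (ENSMUSG00000017466, chromosome 11, 118301069 to 118355740) inhibits MMPs and also serves in the activation of pro-MMP2 by MMP14. It stood at 1028 CPM in MEF, 252 in Pax7, 170 in Myog-high, 310 in Ckm-high and 563 in Dcn-high cells. It was the highest member in MEF and was 3.94-fold lower in the whole iMPC library. Between Ckm-high and Pax7 cells it stayed within 2-fold (log2 ratio 0.30, 0.26 to 0.33), unlike the other inhibitors.

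Timp1 (ENSMUSG00000001131, chromosome X, 20870166 to 20874735) is a secreted inhibitor that many cell types induce in injury. It stood at 258 CPM in MEF, 378 in Pax7, 83.1 in Myog-high, 46.5 in Ckm-high and 696 in Dcn-high cells. Pax7 cells were above MEF and 8.13-fold above Ckm-high cells (log2 ratio of Ckm-high to Pax7 -3.02, -3.09 to -2.96). Timp3 (ENSMUSG00000020044, chromosome 10, 86300372 to 86349506) is the inhibitor that stays bound to the matrix and also blocks ADAM17. Its levels were 211 CPM in MEF, 66.5 in Pax7, 12.5 in Myog-high, 9.84 in Ckm-high and 426 in Dcn-high cells. It was 6.75-fold lower in Ckm-high than in Pax7 cells. Timp2 made up 84.6% of the Timp UMIs of Ckm-high cells, 68.7% of those of MEF, 36.2% of those of Pax7 and 33.4% of those of Dcn-high cells. Timp1 was the largest part in Pax7 (54.2%) and Dcn-high cells (41.3%). Timp4 reached 0.563 CPM at most, in Myog-high cells. Timp1 and Timp3 overlap Syn1 and Syn3 on the opposite strand, and whether the counting used strand is not given in the sources used here.

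The gelatinases cut denatured collagen and the type IV collagen of basement membranes. Mmp2 (ENSMUSG00000031740, chromosome 8, 92827291 to 92853420) stood at 78.7 CPM in MEF, 57.4 in Pax7, 10.0 in Myog-high, 6.99 in Ckm-high and 353 in Dcn-high cells. Dcn-high cells were 4.48-fold above MEF (log2 ratio 2.16, 2.11 to 2.22) and 6.15-fold above Pax7 cells. They were 5.23% of the iMPC UMIs and held 43.4% of the Mmp2 UMIs. Mmp9 (ENSMUSG00000017737, chromosome 2, 164940780 to 164955850) stood at 0.644 CPM in MEF (76 UMIs), 23.1 in Pax7, 2.71 in Myog-high, 1.95 in Ckm-high and 68.3 in Dcn-high cells. It was all but missing from the fibroblast library, and Dcn-high cells were 106-fold above it (log2 ratio 6.73, 6.39 to 7.09). In Ckm-high cells it was 11.9-fold lower than in Pax7 cells. The 2 gelatinases summed to similar levels in MEF (79.3 CPM) and Pax7 cells (80.5 CPM) with a different make-up. The Pax7 sum depended on the 11.4% of Pax7 cells with a Dcn UMI, which held 50.3% of its Mmp2 and 23.6% of its Mmp9 UMIs.

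Some Pax7 cells also held Dcn transcripts, and this bore on several members. A Dcn UMI was found in 249 of the 2180 Pax7 cells (11.4%), which held 11.7% of the set's UMIs. They held 91.2% of its Mmp3, 50.3% of its Mmp2, 42.4% of its Mmp19 and 41.0% of its Timp3 UMIs, against 23.6% for Mmp9, 20.3% for Mmp14 and 13.1% for Adamts4. Without them Mmp2 in Pax7 cells was 32.3 CPM, Timp3 44.4 CPM and Mmp3 0.695 CPM. In the same way the 18 Ckm-high cells with 5 or more Dcn UMIs held 2.36% of that set's UMIs but 40.6% of its Mmp2 and 35.9% of its Timp3. Scrublet marked 1.33% of Pax7 and 7.91% of Ckm-high cells as doublets. With those removed, 23 members still differed between Ckm-high and Pax7 cells, 4 higher and 19 lower, where 45.7% of all genes did.

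The stromelysins cut proteoglycans, laminin and fibronectin and activate other MMPs. Mmp3 (ENSMUSG00000043613, chromosome 9, 7445822 to 7455975) stood at 43.7 CPM in MEF, 6.997 in Pax7, 2.01 in Myog-high, 3.08 in Ckm-high and 220 in Dcn-high cells. Its neighbour Mmp10 (ENSMUSG00000047562, chromosome 9, 7502352 to 7510240) stood at 0.627 CPM in MEF and 7.15 (5.72 to 8.82) in Dcn-high cells, and had 7, 0 and 2 UMIs in Pax7, Myog-high and Ckm-high cells. Dcn-high cells held 75.5% of the Mmp3 and 63.5% of the Mmp10 UMIs of the iMPC library and were 5.03-fold and 11.4-fold above MEF. Mmp3 was lower past 2-fold in Ckm-high than in Pax7 cells (log2 ratio -1.18, -1.47 to -0.90), but with Pax7 cells that lack a Dcn UMI the ratio turned to 2.15. In Myog-high cells it turned from -1.80 to 1.53. Mmp11 (28.0 CPM in MEF, 9.43 in Pax7, 5.41 in Myog-high, 5.10 in Ckm-high and 13.6 in Dcn-high cells), whose product is activated inside the cell by furin, was highest in MEF.

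Within the Dcn-high set Mmp3 was carried by few cells. Of the 553 cells 95 held an Mmp3 UMI, and 51 cells with 10 or more held 94.1% of all Mmp3 UMIs, up to 313 in a cell. Of the 20 cells with an Mmp10 UMI 18 also held Mmp3. MEF showed a like pattern with 702 cells holding Mmp3, of which 129 cells with 10 or more carried 72.0% of its UMIs. There 34 of the 44 cells with Mmp10 also held Mmp3.

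Mmp3 and Mmp10 lie in a run of 10 Mmp genes on chromosome 9 (7272514 to 7699585, GRCm38) in which they alone reached 5 CPM. Mmp12, the macrophage elastase, came next with 2.87 CPM in Dcn-high cells, 0.635 in MEF and 0, 1 and 0 UMIs in Pax7, Myog-high and Ckm-high cells. The collagenases of the run, Mmp1a, Mmp1b, Mmp8 and Mmp13, summed to at most 0.575 CPM in any set. Mmp1a and Mmp1b are close copies, and how reads that match both were counted was not examined. The start regions of 8 of the 10 genes share a short motif, TGANTCA. It takes in the binding motif of AP-1, a factor made of Fos and Jun proteins, but leaves the middle base free. The match of Mmp20 reads TGAATCA. Windows of 300 bases (250 before to 50 after a RefSeq start, GRCm38.p6) were found for 49 members, 54 windows in all. Mmp2, Mmp9, Adamts4, Adamts5 and Adamts15 were among the members without one. The motif is its own reverse complement when N is left free and was read on both strands. It was in 13 of these 54 (24.1%) and in 7.81% of all 32851 windows. Of the 13, 8 belong to this run of neighbouring genes and are not independent of each other. Stretches from 8 genes of the run are printed 5′ to 3′ on the gene's strand, with 15 bases on either side and the motif in capitals. They are shown because genes of the run with and without UMIs both carry it.
Mmp3: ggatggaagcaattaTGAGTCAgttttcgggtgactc
Mmp10: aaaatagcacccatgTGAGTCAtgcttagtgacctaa
Mmp12: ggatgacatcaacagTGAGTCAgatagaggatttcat
Mmp13: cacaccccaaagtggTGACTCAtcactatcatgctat
Mmp1a: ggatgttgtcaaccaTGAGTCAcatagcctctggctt
Mmp1b: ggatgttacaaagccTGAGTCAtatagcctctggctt
Mmp7: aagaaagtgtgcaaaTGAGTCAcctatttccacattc
Mmp20: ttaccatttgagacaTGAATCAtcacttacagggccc
The stretch of Mmp3 is chr9:7445761-7445797 and that of Mmp10 chr9:7502264-7502300, both on the plus strand of GRCm38.p6, with the motif 46 and 63 bases before the start. Mmp1b, Mmp7 and Mmp20 had 0 UMIs in the cells of both libraries although their windows hold the motif. For Mmp1b the 0 carries the limit of its close copy Mmp1a. The other 2 genes of the run, Mmp8 and Mmp27, have no match in the window. A match is a description of letters, not a bound site. CAGCTG, a form of the E-box that MyoD and myogenin bind, was in 9 of 54 member windows (16.7%) and 16.3% of all windows.

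Membrane-type MMPs act at the cell surface, and the 2 main ones went in opposite directions. Mmp14 (ENSMUSG00000000957, chromosome 14, 54431612 to 54445364), the activator of pro-MMP2, stood at 115 CPM in MEF, 92.7 in Pax7, 28.7 in Myog-high, 7.69 in Ckm-high and 180 in Dcn-high cells. It was 12.1-fold lower in Ckm-high than in Pax7 cells (log2 ratio -3.59, -3.75 to -3.44), and 83.7 CPM of it remained in Pax7 cells without a Dcn UMI. The size of that ratio depended on the processing, from -5.36 when iMPC cells were thinned to the minimum depth of a cell before the sets were formed to -3.10 with the scaling by median gene ratio. Over the same alternatives the ratio of Mmp9 went from -5.82 to -3.08, that of Timp1 from -4.32 to -2.53 and that of Mmp2 from -4.12 to -2.21, all lower in Ckm-high cells. Mmp15 (ENSMUSG00000031790, chromosome 8, 95352268 to 95375080), another membrane-type enzyme, stood at 1.15 CPM in MEF, 7.29 in Pax7, 15.3 in Myog-high, 23.6 in Ckm-high and 3.29 in Dcn-high cells. It was the only Mmp past 2-fold higher in Ckm-high than in Pax7 cells (log2 ratio 1.69, 1.51 to 1.88). Of the 31 members tested in Dcn-high against Pax7 cells it was the only one past 2-fold lower, and Adamts5 joined it (log2 ratio -1.22) once iMPC cells were thinned to the minimum depth of a cell before the sets were formed. Mmp19 (22.6 CPM in MEF, 5.95 in Pax7, 0.996 in Myog-high, 0.658 in Ckm-high and 26.0 in Dcn-high cells) and Mmp23 (33.2, 5.61, 1.71, 1.34 and 13.8 CPM in the same order) were low in both differentiated sets. Their calls there depended on the Pax7 cells used, since without Dcn-holding cells their Pax7 levels were 3.89 and 4.71 CPM, under the minimum.

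The 2 ADAMs that act as general sheddases stayed within 2-fold in most comparisons. Adam10, which cuts Notch receptors and cadherins, stood at 72.5 CPM in MEF, 55.5 in Pax7, 36.8 in Myog-high, 39.6 in Ckm-high and 65.4 in Dcn-high cells and was within 2-fold in all 5 comparisons. Adam17, which releases tumour necrosis factor and EGF receptor ligands, stood at 22.9 CPM in MEF, 31.1 in Pax7, 19.5 in Myog-high, 13.6 in Ckm-high and 40.7 in Dcn-high cells. It passed 2-fold in 1 comparison, lower in Ckm-high than in Pax7 cells (log2 ratio -1.19, -1.33 to -1.06), and not when each pair of sets was scaled by the median of gene ratios (-0.70).

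Adam9, Adam15 and Adam33 were highest in MEF cells and next highest in Dcn-high cells. Between Dcn-high and Pax7 cells Adam9 stayed within 2-fold (log2 ratio 0.81). Adam9 stood at 116 CPM in MEF, 24.1 in Pax7, 13.1 in Myog-high, 11.7 in Ckm-high and 42.1 in Dcn-high cells. Adam15 followed with 67.0, 12.3, 5.32, 5.78 and 30.4 CPM in that order. Adam33 had 34.5 CPM in MEF, 11.2 in Dcn-high and 1.04 in Pax7 cells, and 6 and 14 UMIs in Myog-high and Ckm-high cells. In the whole iMPC library they were 5.96-fold, 6.36-fold and 31.3-fold lower than in MEF, and all 3 were lower in Dcn-high than in MEF cells too.

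Adam19 (ENSMUSG00000011256, chromosome 11, 46055992 to 46147343), which cuts neuregulins, was the only ADAM past 2-fold higher in Ckm-high than in Pax7 cells. It stood at 78.6 CPM in MEF, 31.1 in Pax7, 54.0 in Myog-high, 68.5 in Ckm-high and 69.0 in Dcn-high cells. Ckm-high cells were 2.20-fold above Pax7 cells (log2 ratio 1.14, 1.05 to 1.23). Adam12, the meltrin linked to myoblast fusion, was the only member highest in Myog-high cells, with 11.6 CPM (10.7 to 12.7). Its level was 8.11 CPM in MEF, 7.43 in Pax7, 2.71 in Ckm-high and 7.23 in Dcn-high cells, so that it was above Pax7 by less than 2-fold in the first set and under it by 2.74-fold in the second. Adam23, which has no protease activity, stood at 12.2 CPM in MEF, 9.22 in Pax7, 2.40 in Myog-high, 3.45 in Ckm-high and 33.7 in Dcn-high cells. Adam8, known from leukocytes, stood at 0.779 CPM in MEF, 3.77 in Pax7, 1.73 in Myog-high, 2.22 in Ckm-high and 10.4 in Dcn-high cells, while the immune marker list summed to 4.35 CPM in Dcn-high cells.

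The Adamts enzymes that cut versican and related proteoglycans summed to 132 CPM in Pax7, 103 in Myog-high and 144 in Ckm-high cells. Adamts1 and Adamts4 were highest among them in Pax7 cells and Adamts5 in both Myog-high and Ckm-high cells. Adamts4 stood at 8.24 CPM in MEF, 41.9 in Pax7, 14.7 in Myog-high, 3.39 in Ckm-high and 37.0 in Dcn-high cells. Adamts5 (ENSMUSG00000022894, chromosome 16, 85856173 to 85901828) stood at 24.6 CPM in MEF, 12.02 in Pax7, 48.2 in Myog-high, 88.9 in Ckm-high and 14.95 in Dcn-high cells. Adamts4 was 12.3-fold lower and Adamts5 7.40-fold higher in Ckm-high than in Pax7 cells (log2 ratios -3.63, -3.86 to -3.40, and 2.89, 2.76 to 3.02). Adamts1 (chromosome 16, 85793827 to 85803113), the next coding gene to Adamts5, did not share its pattern, with 51.7 CPM in MEF, 44.6 in Pax7, 27.0 in Myog-high, 36.9 in Ckm-high and 102 in Dcn-high cells. Adamts1 stayed within 2-fold between Ckm-high and Pax7 cells (log2 ratio -0.28, -0.37 to -0.18).

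Adamts20, a proteoglycanase known from pigment cell development, was, like Mmp15 and Adamts5, highest in Ckm-high cells. It stood at 0.169 CPM in MEF (20 UMIs), 1.29 in Pax7, 5.02 in Myog-high, 11.5 in Ckm-high and 1.31 in Dcn-high cells. Its call in Myog-high against Pax7 cells was lost, with the level under 5 CPM, when each cell's own CPM was averaged and when cells were limited to a mitochondrial share of 10%. Adamts15 and Adamts9 were both lower past 2-fold in Myog-high and Ckm-high than in Pax7 cells. Adamts15 stood at 0.669 CPM in MEF, 18.2 in Pax7, 1.95 in Myog-high, 1.62 in Ckm-high and 26.4 in Dcn-high cells, and Adamts9 at 14.4, 14.3, 5.61, 1.79 and 15.9 CPM. Like Mmp9, Adamts15 was close to missing in MEF and 39.4-fold higher in Dcn-high cells (log2 ratio 5.30, 4.94 to 5.67).

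The procollagen N-proteinases trim the ends of fibrillar collagens. Adamts2 stood at 28.3 CPM in MEF, 31.9 in Pax7, 7.49 in Myog-high, 3.97 in Ckm-high and 136 in Dcn-high cells. Adamts14 stood at 3.03 CPM in MEF, 9.50 in Pax7, 5.48 in Myog-high, 9.66 in Ckm-high and 27.8 in Dcn-high cells. Both were highest in Dcn-high cells, and only Adamts2 was lower in Ckm-high than in Pax7 cells (8.05-fold). Their sum was 164 CPM in Dcn-high and 31.4 CPM in MEF cells with Adamts3 included.

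Of the remaining Adamts genes, Adamts6 was confined almost to MEF, with 9.12 CPM there and at most 5 UMIs in any of the 4 iMPC sets. Adamts10, a microfibril-associated member, stood at 29.0 CPM in MEF, 8.25 in Pax7, 1.95 in Myog-high, 0.658 in Ckm-high and 10.0 in Dcn-high cells. Adamts12 (6.44, 9.79, 5.45, 2.08 and 24.3 CPM in that order) and Adamts7 (3.60, 4.07, 2.19, 2.49 and 10.4 CPM) are related enzymes that cut cartilage oligomeric matrix protein. Both were highest in Dcn-high cells.

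Read along the order Pax7, Myog-high and Ckm-high, 10 members were lower at both steps with intervals that did not overlap, namely Mmp2, Mmp14, Timp1, Timp3, Adam17, Adamts2, Adamts4, Adamts9, Adamts10 and Adamts12. By the same measure 4 were higher at both steps, Mmp15, Adam19, Adamts5 and Adamts20. The remaining 19 did neither. Timp2 was among these, with its lowest level in Myog-high cells. The share of all genes with either pattern was not computed. All tested genes had a median log2 ratio to Pax7 cells of -0.17 in Myog-high and -0.49 in Ckm-high cells. Pax7 cells with a Dcn UMI held 50.3% of that set's Mmp2 and 41.0% of its Timp3 UMIs.

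**Figure D3:**
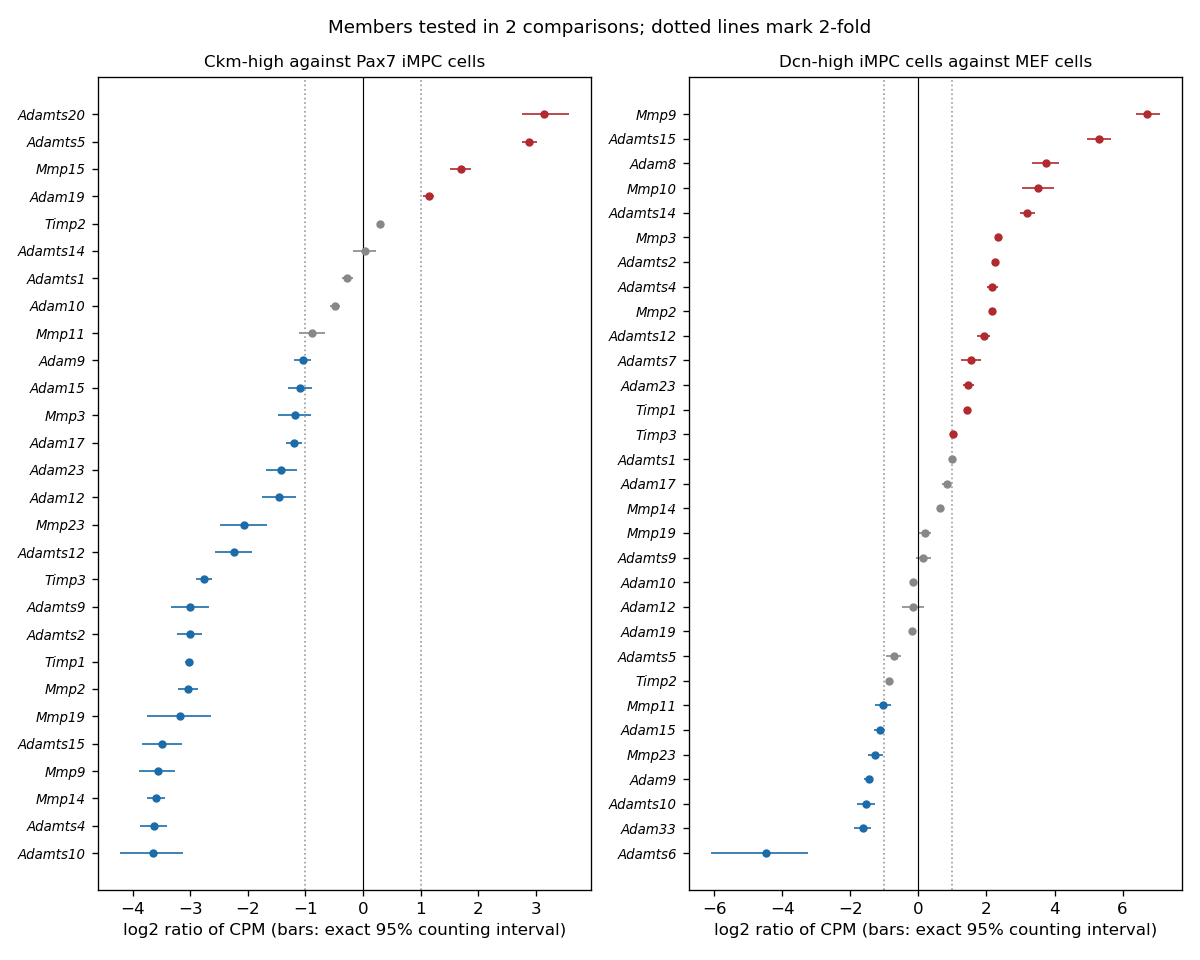
Log2 ratio of CPM (horizontal axis) of the members tested in Ckm-high against Pax7 cells (left, 28 members) and Dcn-high against MEF cells (right, 31 members), with exact 95% counting intervals and dotted lines at 2-fold. Adamts20, Adamts5, Mmp15 and Adam19 stand to the right in the left panel, and Mmp9 (6.73) and Adamts15 (5.30) lead the right panel.

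Dcn-high iMPC cells and MEF cells both carried fibroblast markers but differed in 21 members. Higher in Dcn-high cells were Mmp2, Mmp3, Mmp9, Mmp10, Timp1, Timp3, Adam8, Adam23, Adamts2, Adamts4, Adamts7, Adamts12, Adamts14 and Adamts15. Lower were Mmp11, Mmp23, Adam9, Adam15, Adam33, Adamts6 and Adamts10. Against only the 2179 MEF cells that also held 5 or more Dcn UMIs the count was 20, 13 higher and 7 lower (28.6% of all genes), and Timp3 left the list (log2 ratio 0.82). Mmp11 stayed past 2-fold under 5 of the 12 alternatives with this call rule and Adam15 under 10 of 12, while Adamts1, 1.97-fold higher, passed it under 10 of 12. In those MEF cells Mmp2 stood at 79.6 CPM, Mmp3 at 71.7, Mmp9 at 0.804 and Adamts15 at 0.720. In the 407 Dcn-high cells outside the Pax7, Myog-high and Ckm-high sets these genes stood at 391, 283, 80.1 and 27.8 CPM. The fibroblast markers did not all go 1 way. Col1a1 stood at 508 CPM in Dcn-high and 2289 CPM in MEF cells. Col3a1 (2174 and 711 CPM), Lum (119 and 33.9 CPM) and Dcn (1162 and 268 CPM) were higher in Dcn-high cells, and the rest of the list was lower. Smooth muscle markers summed to 1152 CPM in Dcn-high and 9885 CPM in MEF cells, with Acta2 at 506 and 6108 and Tagln at 162 and 3600 CPM. In that list Des (420 and 0.932 CPM) and Rgs5 (54.3 and 0.720 CPM) went the other way. The part of these markers in the differences was not tested. The 2 libraries were selected differently before deposit, and culture medium and library cannot be told apart from the cell state.

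How many cells held a transcript was compared after every cell was thinned to 5000 UMIs. Mmp2 was found in 67.8% of Dcn-high cells (63.7 to 71.7), 24.1% of MEF, 17.3% of Pax7, 3.42% of Myog-high and 1.74% of Ckm-high cells. Mmp9 was found in 23.9% of Dcn-high, 8.12% of Pax7 and 0.299% of MEF cells. Adamts5 was found in 32.2% of Ckm-high (29.4 to 35.1), 16.1% of Myog-high and 5.46% of Pax7 cells. Timp2 was found in 96.1% of MEF and 66.4% of Ckm-high cells. Unthinned, Mmp2 was found in 93.0% of Dcn-high and 11.8% of Ckm-high cells, at their median depths of 18064 and 42148 UMIs. The Ckm-high share, the lowest, is given as the background for Mmp2. Free RNA in barcodes of 200 to 600 UMIs would add 0.474 CPM of Mmp2, 0.110 of Mmp3 and 0.140 of Mmp9 to a cell. At a share of 10% with the profile of barcodes of 1 to 100 UMIs these values would be 3.93, 1.80 and 1.23 CPM. The levels of Mmp2, Mmp3 and Mmp9 in Myog-high and Ckm-high cells are of the order of that upper estimate and were not told from free RNA. For other members of Ckm-high cells that estimate was 29.0 of 46.5 CPM for Timp1, 4.34 of 7.69 for Mmp14 and 4.81 of 9.84 for Timp3. With it subtracted, 23 members differed between Ckm-high and Pax7 cells (48.0% of all genes) and 19 between Myog-high and Pax7 cells (22.5%).

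**Figure D4:**
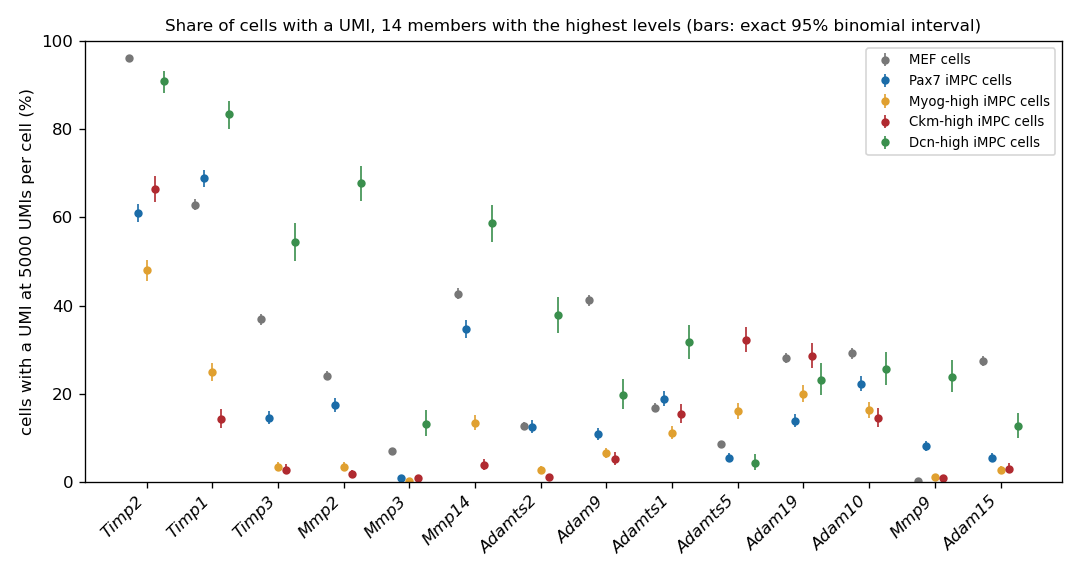
Share of cells with a UMI (vertical axis, percent) after thinning to 5000 UMIs per cell, for the 14 members with the highest levels in 5 sets, with exact 95% binomial intervals. Timp2 is found in 96.1% of MEF cells, Mmp2 in 67.8% of Dcn-high cells and Adamts5 in 32.2% of Ckm-high cells.

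The 46 members under 5 CPM reached 3.52 CPM at most, which was Mmp16 in MEF. Mmp12 (2.87 CPM), Adam22 (1.75 CPM in MEF) and Mmp17 (1.07 CPM in Dcn-high cells) followed. Of the 79 members 12 had 0 UMIs in the cells of both libraries. They were Mmp1b, Mmp7 and Mmp20 and 9 Adam genes, several of which are known from testis (Adam6a, Adam6b, Adam24, Adam25, Adam26a, Adam26b, Adam29, Adam34 and Adam39). MEF cells held 118069653 and iMPC cells 232728796 UMIs in all.

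Other genes of matrix proteolysis were read from lists of proteins that activate, inhibit or receive these enzymes. The lists are short and their counts are descriptions. Of all tested genes 31.7% were lower and 11.9% higher in Ckm-high than in Pax7 cells, and several lists were near those shares. The share lower in Myog-high than in Pax7 cells was 12.8%, and that lower in iMPC than in MEF 21.9%. The share higher in Dcn-high cells was 11.7% against Pax7 and 14.3% against MEF cells. The plasminogen system makes plasmin, which activates pro-MMPs. Of 8 genes 5 were tested, and all 5 were lower in Myog-high and in Ckm-high than in Pax7 cells. Among them the urokinase gene Plau went from 155 CPM in Pax7 to 22.5 in Ckm-high cells, its inhibitor Serpine2 from 191 to 18.1 and the tissue activator Plat from 47.2 to 3.99. In Dcn-high against MEF cells 4 of 5 were higher, and Serpine2 stood at 650 against 75.0 CPM. The tolloid list holds the procollagen C-proteinase Bmp1 and its enhancers. It was lower in iMPC than in MEF in 4 of 4 tested genes and lower in Ckm-high than in Pax7 cells in 3 of 3, with Pcolce at 506 CPM in MEF, 161 in Pax7 and 14.6 in Ckm-high cells.

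Among other inhibitors and regulators, 4 of 5 tested genes were lower in Ckm-high than in Pax7 cells and 0 higher. Lrp1, the receptor that clears MMPs and TIMPs, stood at 98.7 CPM in Pax7, 12.2 in Ckm-high and 363 in Dcn-high cells, and Fbln1, an ADAMTS1 cofactor, at 137, 12.4 and 57.9 CPM. Thbs1 stood at 1883 CPM in MEF and 14.2 CPM in iMPC. Of 13 cathepsins and cystatins 8 were higher and 0 lower in Dcn-high than in Pax7 cells, led by Ctsl (3376 against 560 CPM) and Ctsb (805 against 298 CPM). In Ckm-high against Pax7 cells 1 was higher, the inhibitor Cst6 (132 against 25.6 CPM), and 4 lower. Of other matrix proteases 3 of 5 were lower in Ckm-high than in Pax7 cells, among them Fap (4.56 against 81.9 CPM) and Htra1 (16.6 against 62.9 CPM). Of the proprotein convertases, among which furin activates membrane-type MMPs and ADAMs, 1 of 3 was lower, Mbtps1 (8.28 against 29.7 CPM), and Furin stood at 20.3 against 29.4 CPM.

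Of the partners that guide ADAM10 and ADAM17, 1 of 7 was higher and 3 were lower in Ckm-high than in Pax7 cells. Tspan33, a tetraspanin partner of ADAM10, stood at 49.3 against 1.43 CPM, while Tspan5 stood at 12.9 against 33.2 CPM and Tspan15 at 6.56 against 22.0 CPM. Of their shed substrates 10 of 14 were lower and 1 was higher, Hbegf (52.5 against 22.0 CPM). The receptor Notch1 stood at 11.9 against 94.8 CPM and the proteoglycan Sdc4 at 89.8 against 237 CPM. The EGF receptor ligand Areg stood at 3.15 CPM in MEF, 198 in Pax7, 18.0 in Ckm-high and 1135 in Dcn-high cells. Of 3 tested proteoglycan substrates 2 were lower in Ckm-high than in Pax7 cells, the ADAMTS substrate Vcan (12.7 against 175 CPM) and Bgn (17.6 against 167 CPM). Of 3 tested Adamts-like genes 2 were higher, Adamtsl5 (11.3 against 4.88 CPM) and Adamtsl1 (6.97 against 1.79 CPM), and 1 was lower.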

How the data were processed

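The deposited matrices hold UMI counts per gene and barcode for 1 iMPC and 1 MEF library, made with the 10x Genomics 3′ kit per the labels' protocols. The submitters' processing notes name Cell Ranger 4.0, Seurat 3.2.3 and GRCm38.p6. These deposited counts carry no recorded normalisation. The iMPC matrix listed 6794880 barcodes (282903287 UMIs), so cells had not been called. The MEF matrix listed 6113 (118541302 UMIs), whose selection is not given in the sources used here. Its 24 genes not listed for iMPC (0.209% of its UMIs) were left out.

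iMPC barcodes with at least 8036 UMIs and barcodes of both libraries with at most 20% mitochondrial UMIs were kept as cells, which removed 191 and 70 barcodes. UMIs were summed over the cells of a set and divided by the set's total (CPM). Intervals are exact Poisson for levels, exact conditional for ratios and exact binomial (Clopper-Pearson) for shares, at 95%, for counting error only. A gene with 0 counts was set to a floor of 3 counts. For shares each cell was thinned to 5000 UMIs, which left out 284 MEF cells. Cells of 2 sets counted in both. Doublets were kept. In 1 alternative those marked by Scrublet were removed (337 iMPC cells, 3.60%, by its own threshold, and 344 MEF cells, 5.69%, as the highest scores). The summing and calling steps were tested on simulated data.

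Every member with at least 5 CPM in 1 of the 5 sets is named with its levels, and of each pathway list the genes past 2-fold were counted and up to 3 with the highest levels named. Hbegf, Notch1 and Furin, among others, were named after their values were seen. The members and lists were chosen with earlier results of these data known. Positions are from GENCODE M21, in which all 79 members were found, and windows at gene starts from RefSeq (GRCm38.p6). The split of Adam genes by their zinc-binding motif was not analysed here. Columns of per-sample values not used numbered 0. Software was matplotlib 3.10.9, scanpy 1.11.5, pandas 2.3.3, scipy 1.17.1 and numpy 2.4.6 under Python 3.11.15.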

Additional observations from a re-analysis of the deposited data

Results flagged for a closer look

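Member transcripts were also found in iMPC barcodes that were not counted as cells, above the level that a count of 0 allows (0.141 CPM in barcodes of 200 to 600 UMIs and 0.342 CPM in those of 1 to 100 UMIs). In the 48846 barcodes of 200 to 600 UMIs, Mmp genes summed to 74.4 CPM, Timp genes to 293 CPM, Adam genes to 125 CPM and Adamts genes to 93.8 CPM. In the 2636580 barcodes of 1 to 100 UMIs the sums were 147 CPM for Mmp, 642 CPM for Timp, 174 CPM for Adam and 137 CPM for Adamts genes.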

How the results depend on the processing

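Among the recomputed counts of differing members 67 stayed within 1.5 times the reported count. That measure takes no account of direction. The other 7 came from stricter call rules, which test or pass fewer genes by construction. When the higher level had to reach 20 CPM, 8 of 14 tested members differed in Myog-high against Pax7 cells (17.5% of all genes). In Ckm-high against Pax7 cells 12 of 15 did (41.9%). With 4-fold as the limit 10 of 29 differed in iMPC against MEF (15.5% of all genes). In Dcn-high against MEF cells 10 of 31 did (11.3%). Against Pax7 cells 9 of 28 did in Myog-high (6.64%), 15 of 28 in Ckm-high (19.6%) and 7 of 31 in Dcn-high cells (4.49%). Scaling by the median of gene ratios shifted Ckm-high against Pax7 cells by -0.49 and left 17 members there, 4 higher and 13 lower (38.7% of all genes).

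Of 97 gene calls, 82 held under all alternatives run at 2-fold and 5 CPM. The log2 ratio of Mmp3 reversed in Ckm-high against Pax7 cells, to 1.60 without cells of more than 1 set and to 2.15 against Pax7 cells without a Dcn UMI, and in Myog-high against those Pax7 cells, to 1.53, each under the minimum level. The alternatives with Pax7 cells without a Dcn UMI and with MEF cells of 5 or more Dcn UMIs were chosen after seeing the data. No paired analysis was possible because each group was 1 library with no replicate number. With 1 library per group, differences between cultures cannot be told apart from differences between libraries.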
